A study of Xenopus laevis with 30 samples.

Results

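Genes of the cadherin, protocadherin and integrin families were followed in Xenopus laevis embryos that were left whole or bisected. Members were the genes whose symbol, or human symbol for gene models without a frog name, begins with cdh and a digit, with pcdh, or with itga or itgb and a digit or the letter v. They made up 32 of the 16673 genes listed at stage 10.5 and 37 of the 15596 listed at stage 12, or 39 genes in either table and 30 in both. By family there were 7 cadherins, 10 protocadherins, 6 integrin alpha subunits and 6 integrin beta subunits at stage 10.5, and 10, 11, 7 and 6 at stage 12. The name pattern also took in 3 genes at each stage that are not integrins: itgb3bp-like.L, ITGB1BP1 (LOC100124969.S) and itgb1bp2.L, which are named for binding to integrin beta subunits. Copies of a gene on the long and short chromosome sets of this allotetraploid frog carry .L and .S, and a model without a frog name is given here by its human symbol with the model ID.

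Classical cadherins are transmembrane proteins that hold neighbouring cells together by binding cadherins on the next cell in the presence of calcium, and their cytoplasmic tails bind catenins. Protocadherins are a related family with weaker or more selective adhesion, used in sorting cells of different embryonic regions. Integrins are pairs of one alpha and one beta subunit that bind cells to extracellular matrix such as fibronectin and laminin. In the frog gastrula these families are known for holding the blastomeres together, for separating tissues, and for the movement of mesoderm over fibronectin.

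The series concerns regeneration of twin embryos. Whole embryos were kept in diluted Marc's Modified Ringers, while half-embryos were cut at stage 8, the blastula, in Barth's solution and then grown in a dilution of it. All embryos were of the Nasco strain and carried no other treatment. At stage 10.5 (early gastrula) and stage 12 (late gastrula) there were 5 groups of 3 libraries each, namely whole embryos and the left, the right, the dorsal and the ventral half-embryo, 30 libraries in all. Libraries with the same replicate number in a stage were paired. The main fit left this pairing out, and each comparison was also run with the number as a block. Calls said to be lost without a library are those of the fit without the block. The cut and the medium cannot be told apart in any comparison with whole embryos, and since no label says that replicates came from separate clutches, p-values cover only the spread among these libraries, part of which may be technical. In whole tissue, fewer cells of a type and less RNA per cell cannot be told apart.

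Depth, as reads over the listed genes, was 3532883 to 3739329 in whole-embryo libraries of stage 10.5 and 2091772 to 2920488 at stage 12, and 3814623 to 5813109 and 2526910 to 5071874 in half-embryo libraries. Levels are RPKM, reads scaled to a gene's length and a library's total, and 10.9 reads at stage 10.5 and 8.15 at stage 12 (medians over genes) made an RPKM of 1. The dorsal and ventral labels matched their markers: 15 of 16 organizer genes at stage 10.5 and 16 of 16 at stage 12 were higher in dorsal than in ventral half-embryos, and 10 of 10 ventral genes were lower at both stages. A pair of libraries stood apart from their groups. In left library 2 of stage 12 organizer markers summed to 189 RPKM, against 999 and 954 in left libraries 1 and 3, and in right library 2 of stage 10.5 they summed to 336 RPKM, against 850 and 827 in right libraries 1 and 3. The opposite libraries of the same number were the highest of their groups. Right library 2 of stage 12 summed to 1204 RPKM, against 929 and 1081, and left library 2 of stage 10.5 to 1192 RPKM, against 572 and 837.

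All 32 and all 37 members passed the filter on low values, at least 3 libraries with an RPKM of 1 or above. So did 16672 of 16673 and 15594 of 15596 listed genes. Only genes with an average RPKM above 1 were listed, which also sets the floor for the lowest members below. The median level of the members, averaged over the 15 libraries of a stage, was 4.31 RPKM at stage 10.5 and 4.63 at stage 12, against 7.67 and 6.92 over all listed genes. Among the members, 11 of 32 and 13 of 37 lay above the median of all genes.

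Cadherin transcripts were dominated by cdh3, known in Xenopus as the maternal C-cadherin that joins the blastomeres. The cdh3.L copy was the highest member at both stages, with a mean of 135 RPKM at stage 10.5 and 158 at stage 12. The next cadherins were cdh3.S, cdh1.S (E-cadherin, the epithelial cadherin) and cdh26.S. Models of CDH2 (N-cadherin, the cadherin of the neural plate) and cdh11.L, a cadherin of the cranial neural crest in Xenopus, were analysed at stage 12 only. The lowest cadherins were CDH4 (Xelaev18046239m) at stage 10.5, with a mean of 1.33 RPKM, and cdh15.1 at stage 12, with a mean of 1.20 RPKM. A model with the human symbol CDH1, LOC100490079.1, held 0 to 8 reads per library at stage 10.5 and 0 to 15 at stage 12.

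Protocadherins were low. None reached a mean of 10 RPKM at either stage. The highest was pcdh1.S, a copy of the axial protocadherin of Xenopus, at a mean of 8.87 RPKM at stage 10.5 and 9.11 at stage 12. The lowest was PCDH18 (LOC100498368-like.S) at stage 10.5, with a mean of 1.21 RPKM, and PCDH19 (Xelaev18038826m) at stage 12, with a mean of 1.40 RPKM.

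Among integrins the subunits of the fibronectin receptor, itga5 and ITGB1, were the highest. ITGB1 (Xelaev18030727m), a model of the beta-1 subunit that pairs with many alpha subunits, had a mean of 46.3 RPKM at both stages. The highest alpha subunit was itga5.L at both stages, at means of 20.2 and 35.2 RPKM, and itgav.L was next to it at stage 10.5, at a mean of 19.5 RPKM. The lowest integrin was itgb7.L at stage 10.5, with a mean of 1.04 RPKM, and itgb6.L at stage 12, with a mean of 1.24 RPKM. Both pcdh8 and itga4 were not analysed here.

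**Figure D1:**
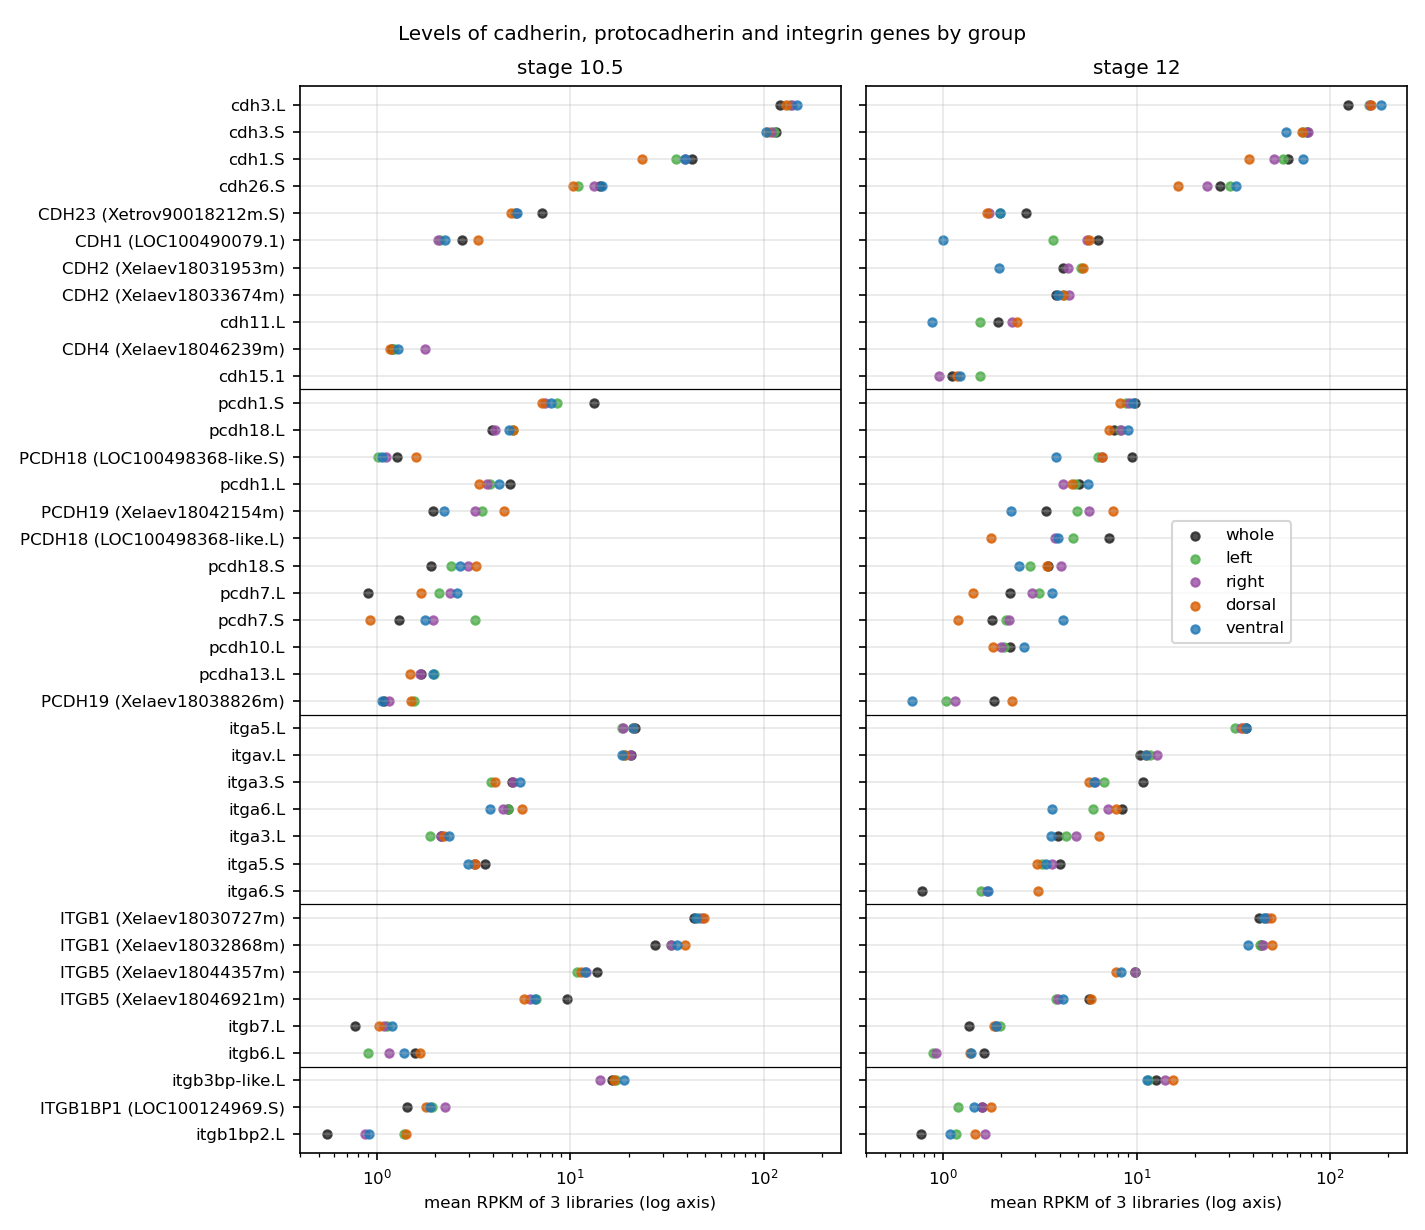
Mean RPKM of 3 libraries (log axis) for each member in each of the 5 groups, at stage 10.5 (left) and stage 12 (right), with families separated by lines. The cdh3 copies are the highest rows, and at stage 12 the ventral points of the CDH2 model Xelaev18031953m and the dorsal points of cdh1.S lie to the left of the other groups.

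Setting dorsal against ventral half-embryos asks which adhesion genes differ between the side with the Spemann organizer and the opposite side. Differences are given on the log2(RPKM + 1) scale, dorsal minus ventral, with the standard error of the limma fit, which understates the change of low genes. The threshold for a call was 0.05 on the Benjamini-Hochberg adjusted p, taken over all genes tested. At stage 10.5 the call fell on 1 of 32 members, cdh1.S, against 0.99% of all genes tested, and on the same count of 1, against 2.17%, once the replicate number entered as a block. At stage 12 it fell on 6 of 37 members, 3 higher and 3 lower in dorsal half-embryos, against 3.76% of all genes (2.01% higher and 1.75% lower), and with the block on 9 of 37, against 5.76%. The medians over the members were -0.01 and 0.02, beside -0.03 and 0.02 over all genes.

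The E-cadherin copy cdh1.S was lower in dorsal half-embryos at both stages. At stage 10.5 its levels were 22.2, 25.6 and 22.9 RPKM in dorsal libraries 1, 2 and 3 and 35.6, 36.5 and 44.9 RPKM in the ventral ones. The groups did not overlap, and dorsal lay below ventral for all 3 numbers, with a difference of -0.70 ± 0.13 (SE, n = 3 against 3, adjusted p = 0.0223 by limma). At stage 12 its levels were 36.1, 32.6 and 45.3 RPKM in dorsal and 91.4, 63.8 and 61.5 RPKM in ventral libraries. Again the groups were apart, by -0.90 ± 0.19 (adjusted p = 0.0173 by limma). The call at stage 10.5 was lost without dorsal library 1 or 3 or ventral library 3 (adjusted p of 0.102 to 0.147), and that at stage 12 without dorsal library 1 or 2 or ventral library 1 (0.0658 to 0.101). The human symbol CDH1 is also given to cdh3.L and cdh3.S, so it does not by itself mark a copy of cdh1. The model LOC100490079.1, which bears that symbol, rested on few reads and went the other way from cdh1.S. Its differences of 0.51 at stage 10.5 and 1.29 at stage 12 were the highest of the cadherins at each stage, and neither was called.

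The second cadherin lower on the dorsal side was cdh26.S. At stage 12 it stood at 20.5, 13.5 and 15.3 RPKM in dorsal and at 33.3, 40.0 and 24.6 RPKM in ventral libraries. No dorsal library reached the lowest ventral one, and the difference was -0.94 ± 0.20 (adjusted p = 0.0149 by limma). The call was lost without dorsal library 2 or 3 or ventral library 1 or 2 (adjusted p of 0.0608 to 0.0826). At stage 10.5 its groups overlapped, with 8.60, 15.2 and 7.25 RPKM against 11.1, 15.99 and 16.7 RPKM.

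Epidermal markers moved with these cadherins. Of the epidermal genes tested, 9 of 13 at stage 10.5 and 12 of 14 at stage 12 were lower in dorsal half-embryos. Their summed level was 126 to 174 RPKM in dorsal and 368 to 791 RPKM in ventral libraries at stage 10.5, and 224 to 489 against 1390 to 1962 RPKM at stage 12, and no marker of that list was at 0 in all libraries of either group. Markers of multiciliated cells, a cell type of the epidermis, were lower for 8 of 11 genes at stage 12, with sums of 18.5 to 35.7 RPKM in dorsal and 99.0 to 200.3 RPKM in ventral libraries, and MCIDAS (Xelaev18002015m) was at 0 in all 3 dorsal libraries. At stage 10.5 this list did not go that way. Of 5 genes tested, 1 was called higher in dorsal half-embryos, 0 were called lower, and 4 differences were above 0. The sums were 32.0 to 40.3 RPKM in dorsal and 23.9 to 35.2 RPKM in ventral libraries. The part of either list in the cadherin differences was not tested.

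N-cadherin went the other way for 1 of its 2 models. CDH2 (Xelaev18031953m) stood at 4.75, 6.51 and 4.61 RPKM in dorsal and at 1.10, 3.52 and 1.24 RPKM in ventral libraries of stage 12. The lowest dorsal library lay above the highest ventral one, with a difference of 1.17 ± 0.27 (adjusted p = 0.0255 by limma). The call was lost without any of dorsal library 1, 2 or 3 or ventral library 1 or 3 (adjusted p of 0.0553 to 0.142). The other model, CDH2 (Xelaev18033674m), had 3.75, 5.09 and 3.65 RPKM in dorsal and 2.93, 5.73 and 3.06 RPKM in ventral libraries, and these overlapped (0.11 ± 0.27, adjusted p = 1.0 by limma). Whether the models differ in their response was not tested, and reads that fit both copies could have been split between them.

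The neural crest cadherin cdh11.L had 2.76, 2.24 and 2.28 RPKM in dorsal and 0.646, 1.34 and 0.642 RPKM in ventral libraries of stage 12. These groups did not overlap, and the difference of 0.89 ± 0.23 missed the threshold at an adjusted p of 0.0543 by limma. It passed at 0.0488 once the replicate number was a block. The cdh3 copies did not pass in either direction: at stage 12 cdh3.L differed by -0.16 ± 0.16 and cdh3.S by 0.28 ± 0.24.

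Among protocadherins, both models of PCDH19, a delta protocadherin of the neural plate in zebrafish, were higher in dorsal half-embryos at stage 12. PCDH19 (Xelaev18042154m) stood at 7.45, 9.20 and 5.98 RPKM in dorsal and at 1.38, 3.36 and 1.96 RPKM in ventral libraries. This was the member with the largest called difference, 1.43 ± 0.23 (adjusted p = 0.00323 by limma), and the call held without each of the 6 libraries in turn. At stage 10.5 the same model had 5.39, 4.10 and 4.17 RPKM against 2.46, 2.61 and 1.57 RPKM. These groups were apart too, but the difference of 0.80 ± 0.22 did not pass (adjusted p = 0.164 by limma).

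PCDH19 (Xelaev18038826m) was low. Its stage 12 levels were 1.66, 2.68 and 2.46 RPKM in dorsal and 0.363, 0.799 and 0.901 RPKM in ventral libraries, from 2 to 25 reads per library over the stage. The groups were apart by 0.95 ± 0.23 (adjusted p = 0.0328 by limma), and the call was lost without dorsal library 2 or 3 or ventral library 1, 2 or 3 (adjusted p of 0.0540 to 0.173).

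The pcdh7 copies, which encode the NF-protocadherin of the deep ectoderm in Xenopus, lay on the ventral side. The pcdh7.S copy stood at 0.952, 1.42 and 1.21 RPKM in dorsal and at 6.40, 1.97 and 4.21 RPKM in ventral libraries of stage 12. All dorsal libraries were below all ventral ones, with a difference of -1.15 ± 0.29 (adjusted p = 0.0457 by limma). The call was lost without dorsal library 1, 2 or 3 or ventral library 1 or 3 (adjusted p of 0.0996 to 0.229), with quantile normalization (0.0612) and with limma-voom on the reads behind the RPKM values (0.0637). The pcdh7.L copy had 0.848, 1.37 and 2.06 RPKM in dorsal and 4.08, 3.06 and 3.82 RPKM in ventral libraries. These did not overlap, and the difference of -0.96 ± 0.27 passed with the replicate block (adjusted p = 0.0347) and not without it (0.0697 by limma).

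Neural plate markers moved with the PCDH19 models and with CDH2 (Xelaev18031953m), but not with the other CDH2 model. The copy cdh11.L lay on the same side but missed the threshold, as given above. At stage 12, 14 of 15 were higher in dorsal half-embryos, with summed levels of 592 to 643 RPKM in dorsal and 169 to 212 RPKM in ventral libraries, and none was at 0 throughout a group. At stage 10.5, 8 of 15 were higher, with sums of 717 to 898 against 335 to 577 RPKM. The organizer, ventral and epidermal markers given above also split between the sides. The part of any of these lists in the differences of the members was not tested.

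**Figure D2:**
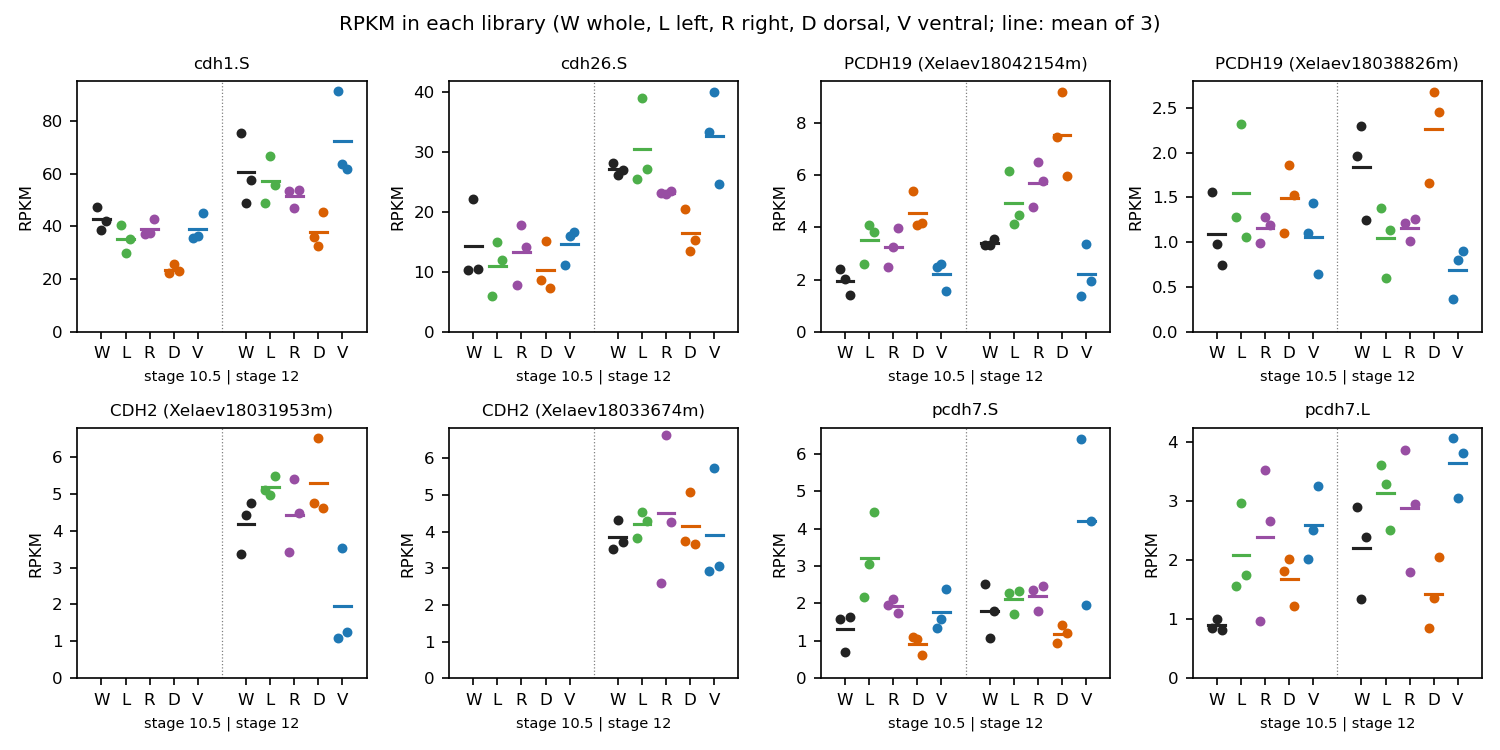
RPKM in each library (points, 3 per group) and the group mean (line) for 8 members, stage 10.5 to the left and stage 12 to the right of the dotted line in each panel, with the CDH2 models analysed at stage 12 only. Dorsal points of cdh1.S and pcdh7.S lie below all ventral points at both stages, and dorsal points of PCDH19 (Xelaev18042154m) lie above them.

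No integrin subunit was called between dorsal and ventral half-embryos at either stage. Unadjusted p-values under 0.05 were found for 3 of 32 members at stage 10.5 and for 10 of 37 at stage 12, of all families. Over all genes they were found for 814 of 16672 and 1699 of 15594. The laminin receptor subunit itga6.L had 5.28, 11.7 and 6.58 RPKM in dorsal and 2.72, 4.05 and 4.16 RPKM in ventral libraries of stage 12. These were apart by 0.88 ± 0.26, which passed with the replicate block (adjusted p = 0.0480) and not without it (0.0898 by limma). ITGB1 (Xelaev18032868m) had 50.2, 51.4 and 48.8 RPKM against 33.9, 40.0 and 38.8 RPKM, also apart, by 0.41 ± 0.12 (adjusted p = 0.101 by limma). The fibronectin receptor subunit itga5.L, at -0.07 ± 0.16, and itgav.L, at 0.02 ± 0.14, lay near 0, and so did the other beta-1 model at 0.13 ± 0.13.

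**Figure D3:**
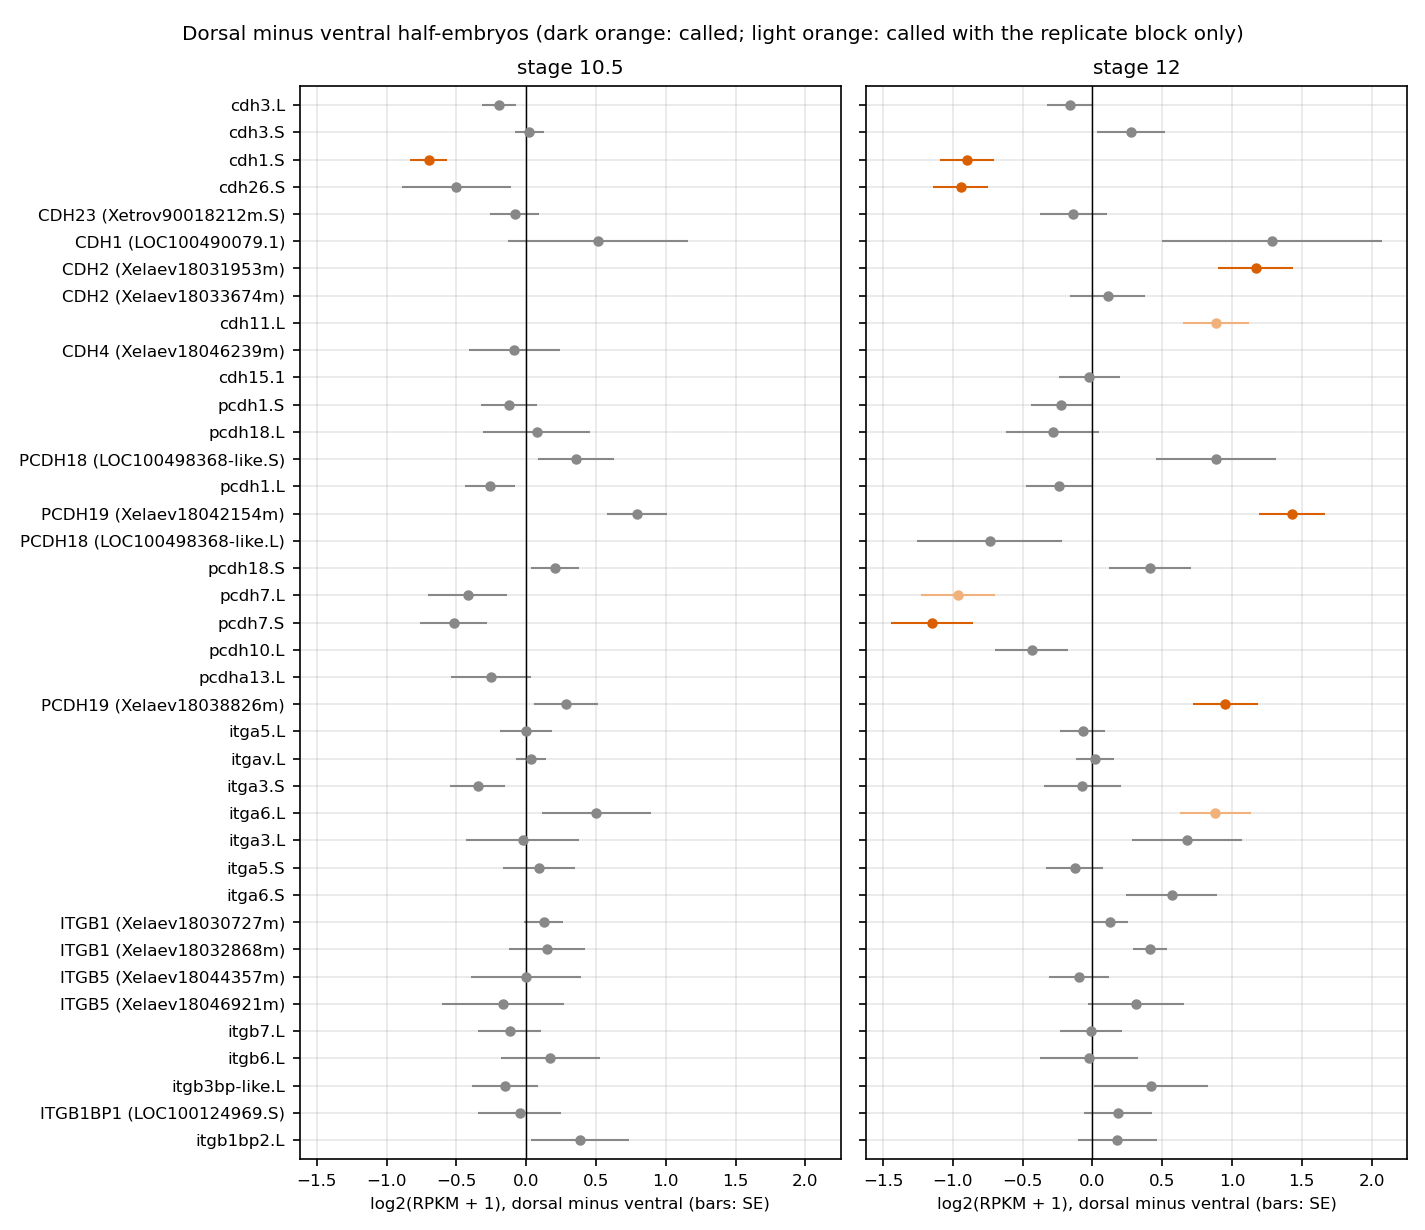
Difference of log2(RPKM + 1), dorsal minus ventral, with its standard error, for each member at stage 10.5 (left) and stage 12 (right). At stage 12, 3 members are called to the right of 0 and 3 to the left (dark orange), and 3 more pass with the replicate block only (light orange).

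The change of the dorsal-ventral difference between the stages was tested for the 30 members in both tables. None of them was called by limma or by limma-voom, and 1 member had an unadjusted p under 0.05, beside 382 of 14948 genes. Of all 14948 genes tested, limma called 0 (0%), limma-voom 1 and limma with the block 0.0268%, the last again with 0 members. That member was PCDH19 (Xelaev18038826m), whose difference changed by 0.67 ± 0.31 (adjusted p = 1.0 by limma). For cdh1.S the change was -0.20 ± 0.24. The calls of cdh26.S, pcdh7.S and the PCDH19 models at stage 12 were thus not shown to differ from stage 10.5.

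Half-embryos were then compared with whole embryos, which asks how adhesion genes stand after the cut. In dorsal half-embryos of stage 10.5, 3 of 32 members were called, against 4.23% of all genes. The call was 1 higher and 2 lower for members and 169 higher (1.01%) and 536 lower (3.21%) for all genes, a split that moved to 225 and 296 with quantile normalization. With the replicate block the count was 7 of 32 members, against 25.3% of all genes, a share that does not exceed that background.

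The member higher in dorsal half-embryos than in whole embryos was PCDH19 (Xelaev18042154m), with 2.42, 2.03 and 1.42 RPKM in whole embryos beside the dorsal levels above. The groups were apart by 0.92 ± 0.22 (adjusted p = 0.0358 by limma), but leaving out any 1 of whole or dorsal libraries 1, 2 and 3 ended the call (0.0526 to 0.139). The copy cdh1.S was lower by -0.83 ± 0.13 (adjusted p = 0.0118 by limma), with whole embryos at 47.3, 38.7 and 41.9 RPKM, all above the dorsal libraries. That call was lost without whole library 3 or dorsal library 3 (0.0663 and 0.0536). Beside it, epidermal markers summed to a mean of 383 RPKM in whole embryos and 157 RPKM in dorsal half-embryos, and 4 of 13 were lower in dorsal half-embryos; their part was not tested.

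The axial protocadherin pcdh1.S was the third, and it was low in every kind of half-embryo. Whole embryos had 9.78, 12.9 and 17.1 RPKM, dorsal half-embryos 7.23, 7.90 and 6.35 RPKM, and ventral half-embryos 7.09, 9.69 and 7.09 RPKM. Left half-embryos stood at 6.99, 10.7 and 7.97 RPKM and right half-embryos at 7.76, 7.08 and 7.44 RPKM. Of the 12 half-embryo libraries, only left library 2 lay above the lowest whole-embryo library.

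For pcdh1.S the difference was -0.78 ± 0.20 in dorsal half-embryos (adjusted p = 0.0476 by limma), -0.65 ± 0.20 in ventral half-embryos (0.115) and -0.65 ± 0.17 for the mean of left and right (0.0618). These comparisons share the 3 whole-embryo libraries. With the replicate block all 3 passed, at 0.00871, 0.0259 and 0.0118. The dorsal call was lost without dorsal library 1, 2 or 3 or whole library 2 or 3 (0.0897 to 0.176) and with quantile normalization (0.0814). At stage 12 pcdh1.S was not called in any kind of half-embryo: whole embryos had 10.8, 9.80 and 8.79 RPKM and dorsal half-embryos 9.002, 10.02 and 5.64 RPKM.

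In ventral half-embryos of stage 10.5 no member was called by limma or limma-voom, with 3 members under an unadjusted p of 0.05, against 2.06% of all genes called. With the block 2 of 32 members passed, a share below the 17.4% of all genes: pcdh1.S, above, and pcdh7.L, which was higher. The copy pcdh7.L had 0.861, 1.00 and 0.826 RPKM in whole embryos and 2.02, 2.51 and 3.26 RPKM in ventral half-embryos. All ventral libraries were above all whole ones (0.91 ± 0.28, adjusted p = 0.116 by limma and 0.0218 with the block).

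For the mean of left and right half-embryos of stage 10.5, the half-embryos that can become twins, no member was called by limma, 6 had an unadjusted p under 0.05, and limma-voom called 1, pcdh1.S (adjusted p = 0.0437), against 2.71% of all genes called by limma. With the block 7 of 32 passed, against 22% of all genes, a share that does not exceed that background. PCDH19 (Xelaev18042154m), pcdh7.L and pcdh7.S were higher, by 0.56 ± 0.19, 0.72 ± 0.24 and 0.62 ± 0.21 in the fit without the block. Lower were pcdh1.S, pcdh1.L (-0.31 ± 0.16), CDH23 (Xetrov90018212m.S; -0.38 ± 0.15), whose mammalian counterpart forms tip links of hair cells, and ITGB5 (Xelaev18046921m; -0.60 ± 0.38), a beta partner of the alpha-V subunit.

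In dorsal half-embryos of stage 12 no member was called against whole embryos by limma or limma-voom, with 7 under an unadjusted p of 0.05, against 0.814% of all genes called by limma. With the block 5 passed, against 6.68% of all genes. PCDH19 (Xelaev18042154m) and itga6.S were higher, and cdh26.S, PCDH18 (LOC100498368-like.L) and itga3.S were lower. PCDH19 (Xelaev18042154m) had 3.32, 3.34 and 3.57 RPKM in whole embryos, below all dorsal libraries, a difference of 0.94 ± 0.23 (adjusted p = 0.0776 by limma, 0.0284 with the block and 0.0466 with quantile normalization). PCDH18 (LOC100498368-like.L) had 4.19, 11.5 and 5.83 RPKM in whole embryos and 2.72, 2.05 and 0.555 RPKM in dorsal half-embryos, apart by -1.55 ± 0.52 (0.168 by limma and 0.0430 with the block).

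In ventral half-embryos of stage 12, 1 of 37 members was called, against 3.95% of all genes. The laminin receptor subunit itga6.L had 9.85, 7.73 and 7.78 RPKM in whole embryos and 2.72, 4.05 and 4.16 RPKM in ventral half-embryos. All whole libraries were above all ventral ones, with a difference of -1.03 ± 0.26 (adjusted p = 0.0416 by limma). Leaving out any 1 of the whole or ventral libraries 1, 2 and 3 ended the call (0.0585 to 0.165).

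With the block 7 members passed in that comparison, against 11.1% of all genes: cdh3.L and pcdh7.S were higher, and itga6.L, CDH2 (Xelaev18031953m), PCDH18 (LOC100498368-like.S), itga3.S and cdh3.S were lower. The cdh3 copies moved in opposite directions there, cdh3.L by 0.57 ± 0.16 and cdh3.S by -0.38 ± 0.24 in the fit without the block, which called neither (adjusted p of 0.0642 and 0.444 by limma). CDH2 (Xelaev18031953m) had 3.37, 4.42 and 4.74 RPKM in whole embryos, and ventral library 2 reached into that range at 3.52 RPKM.

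The S copy of the laminin receptor subunit itga3 was lower than in whole embryos in each kind of half-embryo at stage 12 once the block was used. Whole embryos had 7.84, 15.1 and 9.44 RPKM. Dorsal half-embryos had 4.97, 6.86 and 5.28 RPKM, ventral half-embryos 6.51, 6.497 and 5.09 RPKM, left half-embryos 6.54, 9.62 and 4.21 RPKM, and right half-embryos 6.45, 7.11 and 4.64 RPKM. The left library 2 was the only half-embryo library above the lowest whole-embryo library. The differences were -0.78 ± 0.28, -0.71 ± 0.28 and, for the mean of left and right, -0.66 ± 0.24, with adjusted p of 0.189, 0.188 and 0.194 by limma and 0.0320, 0.0331 and 0.0299 with the block. These comparisons share their whole-embryo libraries. The L copy did not fall alongside: the log2 ratio of itga3.L to itga3.S was higher than in whole embryos in all 3. It differed by 1.40 ± 0.48 in dorsal half-embryos, 0.65 ± 0.48 in ventral half-embryos and 0.90 ± 0.42 for the mean of left and right. By limma no such ratio passed (adjusted p of 0.289, 0.614 and 0.409), and with the block the dorsal one did (0.0388, 0.167 and 0.0573). For the mean of left and right no other member passed with the block, none was called by limma or limma-voom without it, 3 had an unadjusted p under 0.05, and 1.38% of all genes were called without it and 8.48% with it. Leaving out left library 2, which stood apart in its markers, also gave 0 called members.

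No member was called between left and right half-embryos at either stage. Limma, with or without the block, and limma-voom called 0 of 32 and 0 of 37 members, 0 had an unadjusted p under 0.05, and 0% of all genes were called by limma. Over all genes 107 of 16672 and 219 of 15594 had an unadjusted p under 0.05. The largest differences, left minus right, were 0.49 ± 0.24 for pcdh7.S at stage 10.5 and -0.39 for pcdh18.S at stage 12. In left library 2 of stage 12, several members called between dorsal and ventral half-embryos lay nearer the ventral levels than in the other left libraries: cdh26.S was at 38.9 RPKM against 25.5 and 27.2 RPKM in left libraries 1 and 3, cdh1.S at 66.5 against 48.9 and 55.6 RPKM, and PCDH19 (Xelaev18042154m) at 4.14 against 6.17 and 4.49 RPKM. PCDH19 (Xelaev18038826m) followed, at 0.600 against 1.39 and 1.14 RPKM. The copy pcdh7.S did not, at 1.72 against 2.27 and 2.34 RPKM, and CDH2 (Xelaev18031953m) was near the others, at 4.96 against 5.09 and 5.47 RPKM.

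Whole embryos of the 2 stages were compared in 1 fit of all 30 libraries over the 14948 genes in both tables. All genes shifted by a median of -0.26 on the log2 scale from stage 10.5 to stage 12, and 42.2% were called, 1821 higher (12.2%) and 4485 lower (30%). With quantile normalization the median was -0.03 and the split was 2615 higher and 2730 lower. Of 30 members, 9 were higher and 3 lower at stage 12, with a member median of 0.34. Relative to the median of all genes each value below is larger by 0.26. With quantile normalization 13 members were higher and 3 lower, and with the replicate block 13 were higher and 6 lower, against 56.7% of all genes, 16.5% higher and 40.3% lower. The block removed the spread between numbers within each stage, and the labels do not tie the numbers of one stage to those of the other.

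The largest change belonged to a protocadherin, PCDH18 (LOC100498368-like.S), which went from 0.556, 2.10 and 1.14 RPKM in whole embryos of stage 10.5 to 8.17, 11.8 and 8.34 RPKM at stage 12. The stages did not overlap, and the change was 2.24 ± 0.37 (adjusted p = 6.72e-05 by limma). Other protocadherins that rose were pcdh7.L (0.73 ± 0.27), pcdh18.S (0.62 ± 0.24) and PCDH19 (Xelaev18042154m; 0.59 ± 0.22), with adjusted p of 0.0358, 0.0394 and 0.0345 by limma. Each of these last 3 was lost without most single libraries: pcdh7.L without whole libraries 1, 2 and 3 of stage 10.5 or 1 and 3 of stage 12 (0.0591 to 0.144), pcdh18.S without any of the 6 (0.0513 to 0.114), and PCDH19 without libraries 2 and 3 of stage 10.5 or 1, 2 and 3 of stage 12 (0.0602 to 0.152). With limma-voom pcdh7.L did not pass (0.0687).

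Integrin alpha subunits changed in both directions. The fibronectin receptor subunit itga5.L went from 18.5, 24.8 and 21.7 RPKM to 31.3, 41.9 and 37.4 RPKM, and the laminin receptor subunit itga3.S from 4.56, 5.88 and 4.63 RPKM to 7.84, 15.1 and 9.44 RPKM. Both stood apart between the stages, with changes of 0.74 ± 0.18 and 0.93 ± 0.24 (adjusted p = 0.00178 and 0.00350 by limma). The alpha-V subunit itgav.L fell from 18.3, 22.6 and 20.7 RPKM to 10.3, 9.79 and 11.1 RPKM, by -0.92 ± 0.11 (adjusted p = 2.41e-06 by limma), or -0.66 relative to the median of all genes. These 3 calls, and that of PCDH18 (LOC100498368-like.S), held without each of the 6 libraries. The copy itga5.S was the lower one in all 15 libraries of each stage. In whole embryos the log2 ratio of itga5.L to itga5.S rose by 0.60 ± 0.22 (adjusted p = 0.0618 by limma and 0.0133 with the block). The rise of itga5.L is thus not shown for itga5.S. The copy itga3.L changed by 0.59 and was not called (adjusted p = 0.267 by limma).

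One model of the beta-1 subunit was called. ITGB1 (Xelaev18032868m) went from 15.5, 36.4 and 30.6 RPKM to 45.7, 41.6 and 45.0 RPKM, a change of 0.74 ± 0.22 (adjusted p = 0.00842 by limma). Whole library 1 of stage 10.5 was the lowest, and without it the change was 0.39 and was not called (0.100). The other model, ITGB1 (Xelaev18030727m), had 37.1, 52.9 and 40.4 RPKM and then 43.2, 45.1 and 40.9 RPKM, a change of 0.00 ± 0.13.

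Among cadherins, cdh26.S rose from 10.4, 22.1 and 10.4 RPKM to 28.2, 26.1 and 26.9 RPKM (0.96 ± 0.32, adjusted p = 0.0186 by limma), and cdh1.S from 47.3, 38.7 and 41.9 RPKM to 75.6, 48.8 and 57.5 RPKM (0.48 ± 0.17, adjusted p = 0.0255 by limma). No library of stage 10.5 reached the lowest of stage 12 for either gene. The first call was lost without library 1 or 3 of stage 10.5 (0.0864 and 0.0867) and the second without library 2 or 3 of stage 10.5 or 1 of stage 12 (0.0612 to 0.170). Beside them, 4 of 13 epidermal markers were higher at stage 12, and their part was not tested.

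The copy cdh3.S fell from 97.5, 119.9 and 130.1 RPKM to 62.5, 82.6 and 83.5 RPKM, by -0.60 ± 0.19 (adjusted p = 0.0152 by limma), while cdh3.L, with a change of 0.03 ± 0.14, was not called. Relative to the median of all genes the change of cdh3.S was -0.34. Its call was lost without library 3 of stage 10.5 or 1 of stage 12 (0.0678 and 0.0859). CDH23 (Xetrov90018212m.S) fell from 8.48, 5.70 and 7.34 RPKM to 2.25, 3.12 and 2.70 RPKM, by -1.14 ± 0.20 (adjusted p = 0.000146 by limma), and this call held without each of the 6 libraries.

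**Figure D4:**
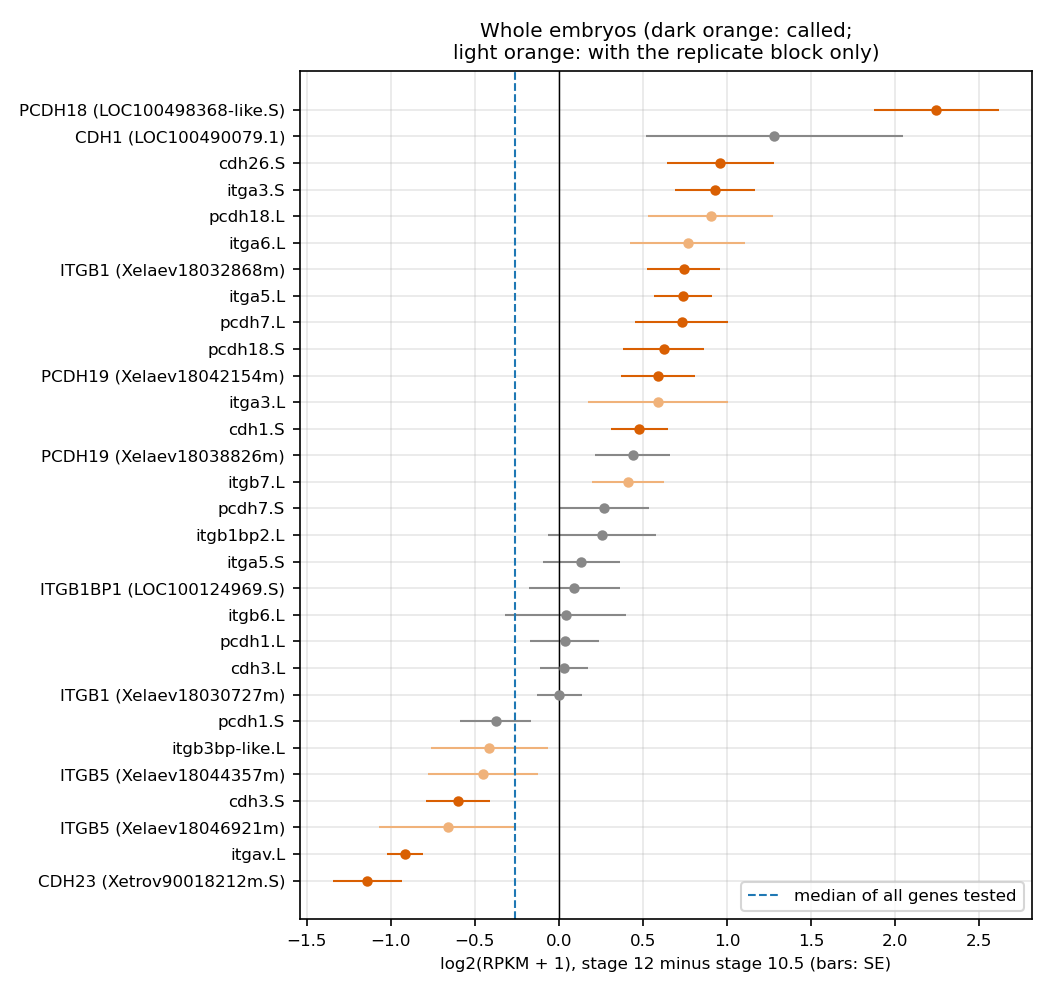
Difference of log2(RPKM + 1) between whole embryos of stage 12 and stage 10.5, with its standard error, for the 30 members in both tables, and the median of all 14948 genes as a dashed line. PCDH18 (LOC100498368-like.S) is the highest row at 2.24 and CDH23 the lowest at -1.14.

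The L and S copies of a gene were compared as a ratio within each library, a comparison added after the data were seen. Both copies of cdh3 were near equal in whole embryos of stage 10.5, where the ratio of cdh3.L to cdh3.S was 1.10, 1.01 and 1.03. At stage 12 it was 2.28, 1.47 and 1.29 in whole embryos and 4.79, 2.38 and 2.81 in ventral half-embryos. On the log2 scale ventral half-embryos differed from whole embryos by 0.95 ± 0.27, which passed with the block (adjusted p = 0.0197) and not without it (0.111 by limma). In all 15 libraries of each stage cdh3.L was the higher copy. The log2 ratio in whole embryos rose by 0.63 ± 0.22 (adjusted p = 0.0460 by limma over 2885 gene pairs, of which 17.9% were called). The call was lost without libraries 1, 2 and 3 of stage 10.5 or 1 and 2 of stage 12 (0.0610 to 0.250) and with a pseudocount of 0.1 (0.0521).

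For itga6 the copies were analysed at stage 12 only. The ratio of itga6.L to itga6.S fell between whole embryos and ventral half-embryos, by -1.59 ± 0.28 on the log2 scale (adjusted p = 0.0243 by limma over 3024 gene pairs, of which 0.86% were called). The copy itga6.S stood at 0.724, 0.977 and 0.623 RPKM in whole embryos and at 0.842, 1.59 and 2.69 RPKM in ventral half-embryos, while itga6.L was the lower in ventral half-embryos, as given above. The call was lost without whole library 1 or 3 or ventral library 1, 2 or 3 (0.0552 to 0.0944). Over the mean of all 4 kinds of half-embryo the itga6 ratio differed from whole embryos by -1.16 ± 0.22 (adjusted p = 0.0406 by limma, with 0.397% of pairs called), a call lost without whole library 1 or 3, dorsal 1 or 2, ventral 1, 2 or 3, left 2 or 3, or right 2 or 3 (0.0513 to 0.192). Copy ratios were also tested in the other comparisons, and only these 3 held a call of a member pair without the block. No ratio of another pair of member copies was called in these 3 comparisons without the block. By limma with the block, itga5 (adjusted p = 0.0133) and pcdh1 (0.0449) also passed between the stages. So did cdh3 (0.0197) in ventral half-embryos and itga3 (0.0256) over the mean of all 4 kinds. In dorsal half-embryos of stage 12 against whole embryos, itga6 (0.0406) and itga3 (0.0388) passed with the block. PCDH18 (LOC100498368-like) passed between dorsal and ventral half-embryos of stage 12, by -1.62 ± 0.37 (0.0428 with the block and 0.0642 by limma without it). Its ratio of L to S copy was 0.382, 0.230 and 0.146 in dorsal and 1.13, 0.921 and 1.63 in ventral libraries. Shares of all pairs called with the block are not given here. The sources used here do not say how reads that fit near-identical copies were counted.

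**Figure D5:**
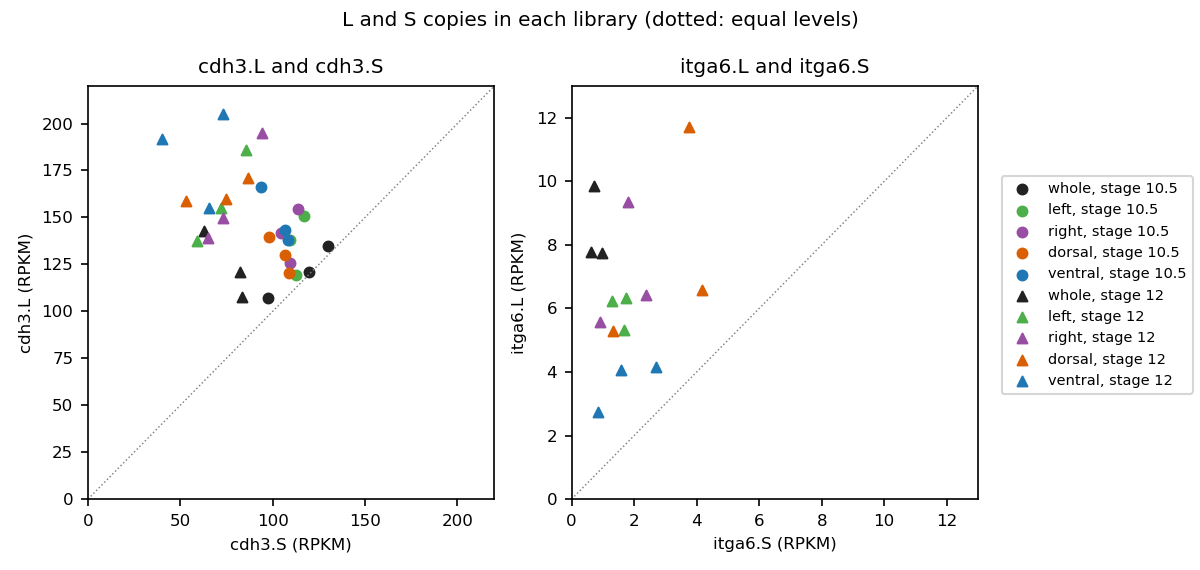
RPKM of the L copy against the S copy in each library, for cdh3 at both stages and for itga6 at stage 12, coloured by group, with circles for stage 10.5 and triangles for stage 12. All cdh3 points lie above the dotted line of equal levels, with a ratio of mean levels of 1.24 at stage 10.5 and 2.22 at stage 12.

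Other genes of these pathways were taken from lists of partners. Of the catenins and other junction partners, 2 of 18 were lower in dorsal than in ventral half-embryos at stage 12, against 1.75% of all genes, and none was higher: dsp.L (desmoplakin, which ties desmosomes to keratin), by -0.85 ± 0.17, and ARVCF (Xelaev18010552m), a p120-type catenin, by -0.69 ± 0.16, with adjusted p of 0.0108 and 0.0247 by limma. In whole embryos 6 of 18 were lower at stage 12 than at stage 10.5 and none was higher. That share lay near the 30% of all genes called lower, and the list median of -0.28 lay beside -0.26 over all genes, so the counts do not set the list apart from other genes.

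Regulators of cadherin genes in epithelial-mesenchymal transition were higher on the dorsal side at stage 12. Of 9 tested, 6 were higher, against 2.01% of all genes, and none was lower, with a list median of 1.31 beside 0.02 over all genes. They were both copies of foxc2 (2.60 ± 0.32 and 2.25 ± 0.30) and of twist1 (2.16 ± 0.44 and 2.33 ± 0.38) and the ZEB2 models (1.20 ± 0.22 and 1.31 ± 0.29). The same 6 were lower in ventral half-embryos than in whole embryos at stage 12, a comparison that shares the ventral libraries. At stage 10.5, 1 of 7 was called higher in dorsal half-embryos, beside 100 of 16672 genes, and all 7 differences were above 0. In whole embryos 5 of 7 rose between the stages, against 12.2% of all genes, and cdh1.S rose too. Twist1 and Zeb2 are known as repressors of E-cadherin, and their part in the level of cdh1.S was not tested.

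Integrin ligands of the matrix rose in whole embryos between the stages for 6 of 9 genes, against 12.2% of all genes called higher, and none fell, with a list median of 0.69 beside -0.26 over all genes. The largest changes were those of the laminin chain copies lamb1.L (3.32 ± 0.44) and lamb1.S (2.23 ± 0.38), and both fibronectin copies, fn1.L (0.97 ± 0.15) and fn1.S (0.41 ± 0.10), rose too. In ventral half-embryos of stage 12 lamb1.L was lower than in whole embryos (-1.02 ± 0.23, adjusted p = 0.0236 by limma).

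Of the integrin adaptors, which link integrins to actin and kinases, 5 of 25 rose in whole embryos between the stages, against 12.2% of all genes, and 9 fell, against 30% of all genes, a share near that background. Those that rose were 3 copies or models of ILK (integrin-linked kinase), SDC4 and 1 model of ZYX. At stage 10.5, 3 of 25 were lower in dorsal half-embryos than in whole embryos, 1 in ventral half-embryos and 2 for the mean of left and right. None was higher, and of all 16672 genes 536, 234 and 306 were lower. The paxillin copy pxn.S was lower in all 3, by -1.16 ± 0.20, -1.13 ± 0.20 and -1.03 ± 0.17, with adjusted p of 0.0138, 0.0153 and 0.0151 by limma. The whole-embryo libraries are shared by these comparisons. Of the large and atypical cadherins, 3 of 7 rose between the stages (fat1.S, celsr2.S and CELSR1) and 2 fell (celsr2.L and clstn3.S), against the same 12.2% and 30% of all genes, and none was called between dorsal and ventral half-embryos.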

How the data were processed

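RPKM values, in 1 table per stage, were deposited by the authors, per the file headers, which list genes of the JGI9.1 annotation with an average RPKM above 1 and human symbols from a protein search. TopHat2 2.09 and DESeq appear in the submitters' processing notes. RPKM values in 100% of genes were whole multiples of 1 read (relative tolerance 1e-07), from which the depth was read. From these values, limma 3.58.1 (R 4.3.3, trend) was fitted to log2(RPKM + 1) of the 15 libraries of a stage, or all 30 across stages, for genes with 3 or more libraries at an RPKM of 1 or above; tests were two-sided, adjusted by Benjamini-Hochberg over all genes tested, and the fits were tested on simulated data. Replicate numbers paired the libraries: each control's label names the same-numbered half-embryos, and deviations from group means correlated at 0.414 or more (30 pairs, stage 10.5) and 0.274 or more (stage 12) within a number, and at -0.157 or less and -0.0832 or less between numbers. Deviations sum to 0 within a group, so positive values within a number force negative ones between numbers, which are not separate evidence of pairing. The members and lists were chosen with earlier results of these data known. Named were members called between dorsal and ventral half-embryos with their copies, the 6 of smallest p among those called in other comparisons, copies of 13 adhesion genes, and the highest and lowest of each family. Other alternatives were pseudocount 0.1, no filter, quantile normalization, only the libraries compared, leaving out each library, and limma-voom on the recovered reads, added after the data were seen.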

Additional observations from a re-analysis of the deposited data

How the results depend on the processing

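No member difference or copy ratio that limma called reversed its direction under any alternative run. Reversals were not counted for values that limma did not call. With the replicate block the members called rose from 3 to 7 for dorsal half-embryos against whole embryos at stage 10.5, from 0 to 2 for ventral half-embryos and from 0 to 7 for the mean of left and right. At stage 12 they rose from 0 to 5, from 1 to 7 and from 0 to 1, and in whole embryos between the stages from 12 to 19. For dorsal against ventral the block gave 1 member at stage 10.5 and 9 at stage 12, beside 6. With only the libraries compared in the fit, the count was 0 for dorsal against ventral at stage 10.5, 1 at stage 12, and 0 for dorsal against whole at stage 10.5. Over all genes that fit called 74 higher and 32 lower of 16280, 264 and 204 of 15210, and 0 of 16411. In the last comparison the member count of 0 thus says nothing about the members. Quantile normalization gave 1 for dorsal against whole at stage 12, beside 107 higher and 81 lower of 15594 genes. For the mean of left and right at stage 10.5 limma-voom gave 1, beside 94 higher and 447 lower of 16672 genes. Leaving out 1 library gave 0 to 1 members for dorsal against ventral at stage 10.5 and 1 to 6 at stage 12, 0 to 2 for dorsal against whole at stage 10.5, 0 to 1 for the mean of left and right at stage 10.5, 0 to 4 for ventral against whole at stage 12, and 6 to 10 for whole embryos between the stages. Of the counts under all alternatives, 123 stayed within 1.5 times the reported one and 33 did not. The 123 include every count of 0 that stayed at 0, in comparisons where limma called no member, so they do not measure how stable the calls were. The causes were not tested. Over all genes, limma-voom called 94 genes as higher and 65 as lower in dorsal than in ventral tissue at stage 10.5, and 297 and 286 at stage 12. The planned count tests, edgeR and DESeq2, were not run, since the deposited values are RPKM. Depth limits the low members: PCDH19 (Xelaev18038826m) rested on as few as 2 reads and LOC100490079.1 on 0.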

Other observations

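Some members kept an order by replicate number across the groups. Such an effect of the number was general: over all genes, deviations within a number correlated at a median of 0.534 at stage 10.5 and 0.411 at stage 12. How many members or genes kept such an order was not counted. Both ITGB5 models were highest in number 1 in all 5 groups of stage 10.5: ITGB5 (Xelaev18044357m) stood at 14.9 to 19.4 RPKM in the 5 libraries of number 1 and at 5.95 to 11.1 RPKM in the other 10, and ITGB5 (Xelaev18046921m) at 8.56 to 12.99 RPKM against 2.75 to 8.23 RPKM. The subunit itga6.L was lowest in number 1 and highest in number 2 in all 5 groups of that stage, at 1.88 to 3.75 RPKM and 5.92 to 7.86 RPKM. The centromere protein gene itgb3bp-like.L was lowest in number 2 in all 5 groups at both stages, at 11.1 to 15.97 RPKM at stage 10.5 and 6.43 to 10.97 RPKM at stage 12. At stage 12 itga6.L no longer kept that order, with 2.72 to 9.85 RPKM in number 1.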
